A study of Homo sapiens with 15 samples.

Results

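The 40 genes described here belong to the cellular response to low oxygen and to glycolysis. They are 17 glycolytic enzymes and 23 other hypoxia-response genes, among them the oxygen-sensing factors themselves, secreted factors, transporters and regulators of mitochondria. Each gene was taken with every array feature, that is every probe of the array design, whose accession carries its symbol. In all, 39 of the 40 genes had at least 1 feature (50 features), and 35 genes, 16 glycolytic enzymes and 19 others, were bright enough to be tested. The arrays held named features for 20503 genes in all.

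The cells were SCC13, a squamous cell carcinoma line from skin, stably transfected either with a plasmid for TLR4 fused to GFP (SCC13-TLR4) or with the control plasmid pUNO (SCC13-pUNO). TLR4 is the receptor for bacterial lipopolysaccharide (LPS). Both lines were selected with blasticidine and grown in DMEM with fetal calf serum, so all groups share the selection and the culture, and the labels name no change of oxygen. The groups were untreated SCC13-pUNO (4 arrays), untreated SCC13-TLR4 (3 arrays), SCC13-pUNO after 24 h with LPS at 10 µg/ml (4 arrays) and SCC13-TLR4 after the same treatment (4 arrays). The methods describe a sort of the transfected cells for the brightest GFP, so the SCC13-TLR4 line is 1 selected population, and the replicates are cultures of it. The p-values therefore measure the spread between cultures of the same 2 transfected lines.

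Levels are given on the log2 scale, as the spot intensity relative to the 75th percentile of its array (192 to 420 intensity units). Per array, 47.1% to 56.2% of the spots were well above background, and no spot was saturated. The arrays lay on 2 slides, each scanned once, and each group had arrays on both. The array labelled untreated SCC13-pUNO replicate 2 went against its label. Its TLR4 level was 3.04, against -6.40 to -3.80 on the 7 other SCC13-pUNO arrays and 2.84 to 3.19 on the 7 SCC13-TLR4 arrays. The genes named for the smallest p-values in comparisons that use this array are also given without it.

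Cells sense oxygen mainly through the hypoxia-inducible factors, whose alpha subunits (HIF1A and EPAS1) are hydroxylated by the EGLN enzymes and destroyed when oxygen is present. In low oxygen the subunits persist and bind short DNA elements near genes for glucose uptake, glycolysis, lactate export, blood vessel growth and the recycling of mitochondria. Signals through TLR4 are known from myeloid cells to raise HIF1A and glycolysis as well, while many tumor cells run glycolysis at a high rate even in oxygen.

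The DNA element these factors bind has the core ACGTG or GCGTG. RefSeq promoter windows (GRCh38.p14, the 250 bases before each annotated transcript start) were on hand for 35 of the 40 genes. At least 1 core, on either strand, lay in 39 of their 63 windows (61.9%), against 43.2% of all 35116 windows. Windows were spread unevenly over genes, and HK1 and PFKM had 7 each, with a core in 1. By gene, 30 of the 35 (85.7%) had a core in at least 1 window, against 47.4% of all 27305 genes. The windows of 3 genes are shown because PGK1 and ADM were above background on all 15 arrays and CA9 on 0, with the cores in capitals and each printed 5′ to 3′ on the strand of its gene. PGK1, a glycolytic kinase well above background on all arrays, has chrX:78103998-78104247, plus strand. ADM, the secreted peptide adrenomedullin, was above background on all arrays too and has chr11:10304823-10305072, plus strand. CA9, a cell surface carbonic anhydrase widely used as a hypoxia marker, was above background on none of the arrays and has chr9:35673678-35673927, plus strand.
PGK1: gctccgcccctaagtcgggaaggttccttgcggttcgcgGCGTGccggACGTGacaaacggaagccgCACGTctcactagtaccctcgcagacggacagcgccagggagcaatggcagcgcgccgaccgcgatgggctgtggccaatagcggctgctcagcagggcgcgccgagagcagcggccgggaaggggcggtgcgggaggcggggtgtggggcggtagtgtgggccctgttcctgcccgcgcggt
ADM: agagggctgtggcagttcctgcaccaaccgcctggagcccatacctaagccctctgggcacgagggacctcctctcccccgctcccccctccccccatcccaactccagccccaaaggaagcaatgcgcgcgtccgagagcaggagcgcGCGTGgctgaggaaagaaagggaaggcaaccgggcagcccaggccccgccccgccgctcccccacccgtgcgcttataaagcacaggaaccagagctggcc
CA9: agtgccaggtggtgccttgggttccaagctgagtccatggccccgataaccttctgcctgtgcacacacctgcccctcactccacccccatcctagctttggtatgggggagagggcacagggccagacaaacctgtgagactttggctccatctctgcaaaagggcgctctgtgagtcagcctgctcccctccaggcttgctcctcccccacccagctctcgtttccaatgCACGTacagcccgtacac
The cores of PGK1 begin 211, 202 and 183 bases before the start, the core of ADM 101 bases before it and the core of CA9 18 bases before it. A match describes these letters only, and no binding was measured.

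All 16 glycolytic enzymes with a feature were tested. They include the hexokinases HK1 and HK2, which trap glucose in the cell, the 3 phosphofructokinases PFKL, PFKM and PFKP, and the lactate dehydrogenases LDHA and LDHB. The aldolase gene ALDOA was not analysed here, since no feature accession carried its symbol in the table used. GAPDH stood between 8.47 and 9.19 on the 15 arrays, LDHB between 8.23 and 8.65, ENO1 between 7.86 and 8.45 and PGK1 between 6.51 and 6.94. Only ENO2, the enolase best known from neurons, was faint, between -4.67 and -2.99 and well above background on 13 of the 15 arrays.

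Of the 23 other genes, 4 were not tested. CA9, EGLN3 (an oxygen-sensing hydroxylase that is itself a target of the factors) and SLC2A3 (the glucose transporter GLUT3) were well above background on 0 of 15 arrays, with levels of -6.70 to -4.48, -6.65 to -4.85 and -6.20 to -4.10. KDM3A, a histone demethylase, was well above background on 7 of 15 arrays, and those were the 7 arrays of slide 2. Among the tested genes, VEGFA, the main growth factor of blood vessels, lay between 3.80 and 4.60, the lactate exporter SLC16A3 (MCT4) between 6.50 and 7.39 and the glucose transporter SLC2A1 (GLUT1) between 2.79 and 3.48. HIF1A itself was faint by its tested feature, between -4.85 and -2.98 and well above background on 12 arrays, whereas its relative EPAS1 (HIF2A) lay between 3.10 and 3.44 on all 15. A further feature of HIF1A was well above background on 7 arrays and was not tested. Further features of VEGFA and HK2, well above background on 0 arrays, were not tested either. Levels of different features are not comparable with each other.

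**Figure D1:**
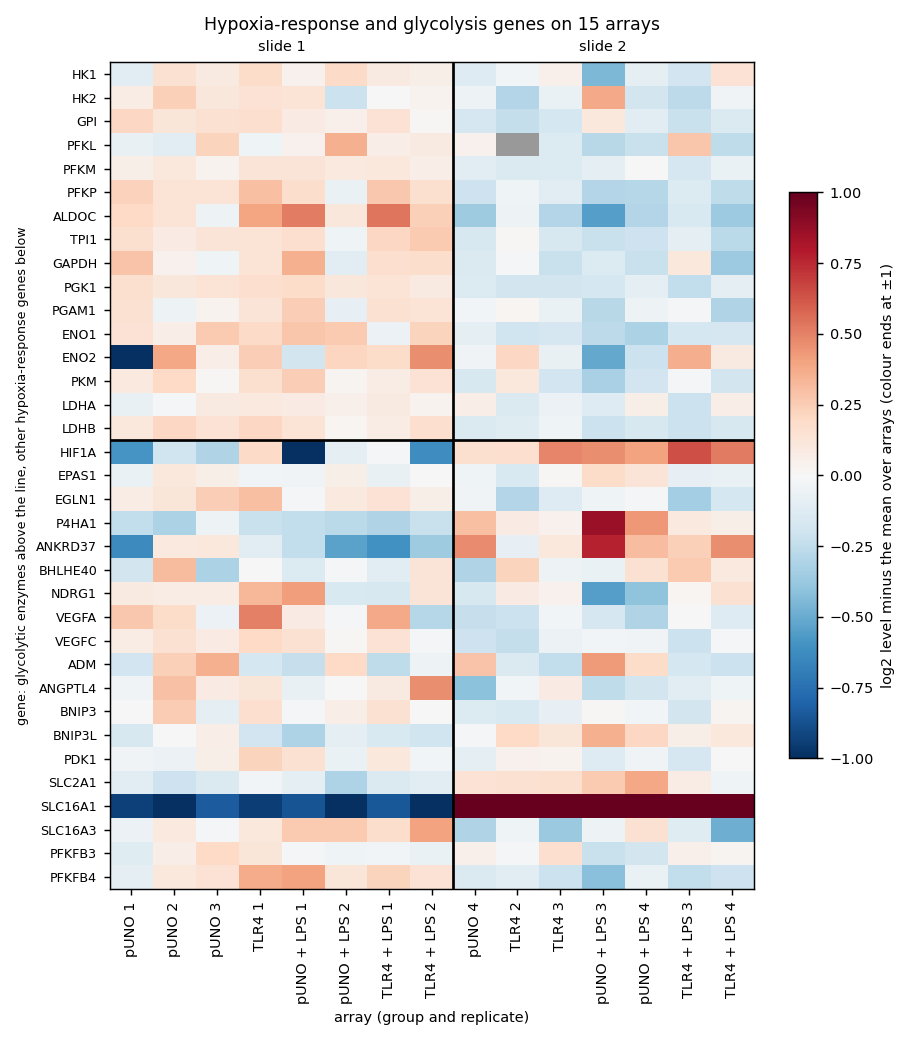
Level of each of the 35 tested genes (rows) on each of the 15 arrays (columns, ordered by slide and group) minus the mean of that gene, on the log2 scale; grey marks a spot left out as an outlier. The slides do not overlap for PFKM, PGK1, ENO1 and LDHB among the glycolytic enzymes and for P4HA1 and SLC16A1 among the other genes. The share of all features whose slides do not overlap was not computed.

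The first question was whether the SCC13-TLR4 line expressed these genes at another level than the control line. None of the 35 genes passed limma's test at an adjusted p under 0.05, in untreated cells (0% of all 22685 features passed), after LPS (0%) or averaged over both (0.097%). At an unadjusted p under 0.05 there were 3 genes in untreated cells (5.55% of all features), 2 after LPS (6.43%) and 5 on average (10.5%). The median log2 fold change of the glycolytic enzymes was 0.05 in untreated cells and 0.04 after LPS, against 0.03 and -0.01 for all features. For the other hypoxia-response genes it was 0.05 and -0.03.

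With the arrays grouped as labelled, these comparisons were precise enough to bound the differences. The untreated intervals thus include, as a control, the array that went against its label. The median half-width of the 95% interval was 0.24 log2 units in untreated cells and 0.21 after LPS, and the interval lay within a 2-fold change in either direction for 34 of 35 genes in each. The exception in both was the faint ENO2. In bulk RNA, fewer cells with a transcript and less transcript per cell cannot be told apart.

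By the brightest feature of each gene, ADM had the smallest p-value of the 35 genes in all 3 comparisons of the lines. In SCC13-pUNO cells its level was 2.88, 3.31, 3.43 and 3.36 without LPS and 2.84, 3.27, 3.50 and 3.26 with LPS. In SCC13-TLR4 cells it was 2.90, 2.93 and 2.83 without LPS and 2.82, 3.02, 2.90 and 2.86 with LPS. Replicate 1 of both control groups lay among the SCC13-TLR4 arrays, and the other 6 control arrays lay above all 7 SCC13-TLR4 arrays, so the groups overlapped. The library labelled untreated SCC13-pUNO replicate 2, which carried TLR4, had an ADM level of 3.31, within the range of the control line. The log2 difference was -0.41 (SE 0.15, adjusted p = 0.895) in untreated cells, -0.32 (SE 0.14, adjusted p = 0.764) after LPS and -0.36 (95% interval -0.59 to -0.14, adjusted p = 0.380) on average. On average it was -0.22 within slide 1 and -0.49 within slide 2. In untreated cells SCC13-TLR4 had only replicate 1 on slide 1, and SCC13-pUNO only replicate 4 on slide 2. Leaving out 1 array at a time gave -0.41 to -0.31, with adjusted p from 0.232 to 0.598, and -0.35 (adjusted p = 0.329) without the array that went against its label, where ANGPTL4 had the smaller p. Without that array the difference in untreated cells was -0.38.

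ANGPTL4, a secreted inhibitor of lipoprotein lipase and a target of the hypoxia factors and of PPAR receptors, ranked next on average. Its level was 1.24, 1.57, 1.36 and 0.87 in untreated SCC13-pUNO cells and 1.20, 1.28, 1.02 and 1.09 after LPS. In SCC13-TLR4 cells it was 1.40, 1.25 and 1.36 untreated and 1.37, 1.74, 1.17 and 1.23 after LPS. The ranges overlapped at both conditions, most in untreated cells, where the control line held both the highest and the lowest value. The averaged difference was 0.21 (SE 0.08, adjusted p = 0.434), and 0.25 (SE 0.07, adjusted p = 0.308) without the array that went against its label. The remaining secreted factors, VEGFA and VEGFC (a growth factor of lymphatic vessels), had averaged differences of 0.13 and -0.01.

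PFKP, the platelet-type phosphofructokinase at the committed step of glycolysis, was the enzyme with the smallest p-value on average. Its levels were 6.43, 6.33, 6.33 and 5.99 in untreated SCC13-pUNO cells and 6.37, 6.13, 5.90 and 5.91 after LPS. In SCC13-TLR4 cells they were 6.50, 6.15 and 6.08 untreated and 6.47, 6.36, 6.06 and 5.94 after LPS. The ranges of the lines overlapped in both conditions, and in each group the slide 2 arrays were the lower ones. The averaged difference of 0.13 (SE 0.05, adjusted p = 0.434) became 0.05 without slide in the model and was 0.13 (adjusted p = 0.429) without the array that went against its label.

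A further 3 genes ranked among the smallest p-values in 1 of the line comparisons. PDK1, a kinase that inhibits pyruvate dehydrogenase, had -0.37, -0.39, -0.27 and -0.42 in untreated SCC13-pUNO cells and -0.11, -0.29 and -0.30 in untreated SCC13-TLR4 cells. ALDOC, an aldolase best known from brain, had 2.31, 2.25, 2.06 and 1.76 against 2.51, 2.06 and 1.82. The 2 lines overlapped for both genes, and the differences were 0.18 (adjusted p = 0.895) and 0.29 (adjusted p = 0.899), or 0.16 and 0.29 (adjusted p = 0.825 for each) without the array that went against its label. P4HA1, a collagen prolyl hydroxylase subunit, had -0.03, -0.05, 1.08 and 0.65 in LPS-treated SCC13-pUNO cells and -0.08, 0.00, 0.32 and 0.28 in LPS-treated SCC13-TLR4 cells. Its difference of -0.28 (adjusted p = 0.764) was -0.56 within slide 2 and -0.01 within slide 1.

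HIF1A was the only gene of the 35 whose untreated groups did not overlap, against 3.59% of all features. Its feature was bright enough to be tested only through untreated SCC13-TLR4 cells, the group that read higher. There it was well above background on all 3 arrays, against 3 of 4 in each other group. The separation is therefore not independent of the filter. Its level was -4.21, -3.82, -3.92 and -3.46 in SCC13-pUNO cells and -3.43, -3.45 and -3.13 in SCC13-TLR4 cells. All values were faint, and 3 of the 4 control arrays but only 1 of the 3 SCC13-TLR4 arrays lay on slide 1, where HIF1A read lower. The difference was 0.52 without slide in the model, 0.22 (SE 0.28, adjusted p = 0.947) with it, 0.28 without the array that went against its label and -0.09 without SCC13-TLR4 replicate 1. After LPS the lines overlapped for all 35 genes (1.26% of all features did not). EPAS1, measured well above background, had differences of -0.07 untreated and -0.14 after LPS, neither past the test.

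**Figure D2:**
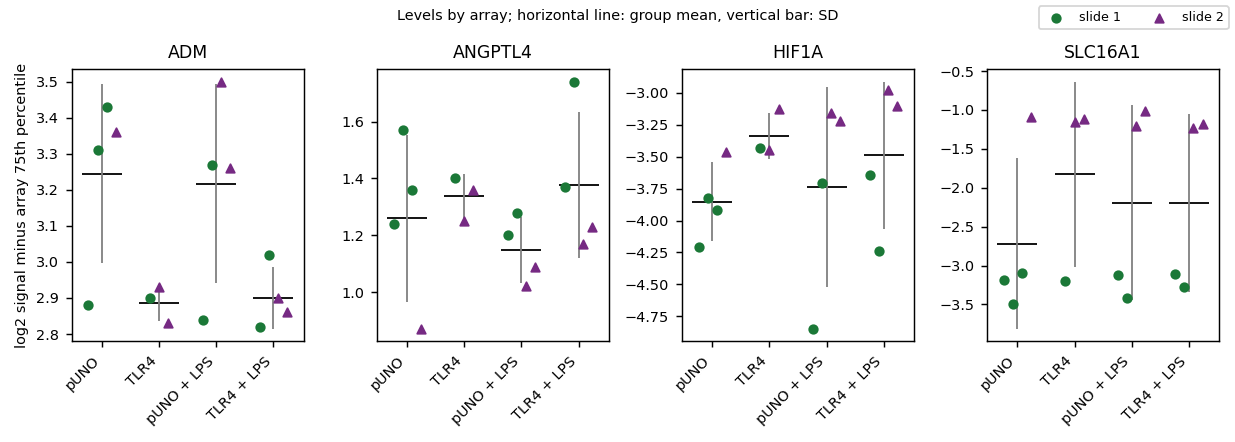
Levels of ADM, ANGPTL4, HIF1A and SLC16A1 on each array by group (circles, slide 1; triangles, slide 2), as log2 signal minus the 75th percentile of the array; lines are group means and bars the SD. ADM is lower on the SCC13-TLR4 arrays than on 6 of the 8 SCC13-pUNO arrays, 1 of them the array that went against its label. SLC16A1 falls into separate bands by slide in every group.

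The second question was the response to 24 h of LPS in each line. None of the 35 genes passed limma's test in SCC13-pUNO cells (0% of all features) or in SCC13-TLR4 cells (0%). At an unadjusted p under 0.05 there was 1 gene in SCC13-pUNO cells (3.85% of all features) and 0 in SCC13-TLR4 cells (2.96%). In no gene were the treated and untreated groups apart, against 1.26% of all features in SCC13-pUNO and 1.67% in SCC13-TLR4 cells. The glycolytic enzymes differed by -0.10 to 0.12 in SCC13-pUNO cells and by -0.10 to 0.13 in SCC13-TLR4 cells. All 35 intervals lay within a 2-fold change in both lines.

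The gene behind the single unadjusted call was SLC16A3, the lactate exporter MCT4. Its level was 6.93, 7.09, 6.97 and 6.69 in untreated SCC13-pUNO cells and 7.25, 7.25, 6.94 and 7.14 after LPS. In SCC13-TLR4 cells it was 7.10, 6.95 and 6.62 untreated and 7.17, 7.39, 6.87 and 6.50 after LPS. In the control line 14 of 16 pairs of arrays were higher after LPS and the ranges overlapped, while in the TLR4 line the treated arrays spread beyond the untreated ones on both sides. The log2 difference was 0.31 (SE 0.12, adjusted p = 0.9999) in the control line and 0.03 in the TLR4 line. The difference between these responses was -0.28 (SE 0.17, adjusted p = 0.9999). Without the array that went against its label, the values were 0.34 in the control line and -0.30 for the difference of the responses.

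PFKFB3, which makes the activator of phosphofructokinase, and PFKP followed in SCC13-pUNO cells with -0.16 and -0.10 (adjusted p = 0.9999 for each), or -0.15 and -0.11 without the array that went against its label. The level of PFKFB3 was 1.66, 1.85, 1.98 and 1.83 untreated and 1.76, 1.74, 1.56 and 1.60 after LPS. In SCC13-TLR4 cells the smallest p-values were those of PDK1 (-0.14), LDHB (-0.09) and PFKP (-0.10), each with an adjusted p of 0.9997. PDK1 stood at -0.11, -0.29 and -0.30 untreated and at -0.23, -0.36, -0.50 and -0.33 after LPS. LDHB stood at 8.65, 8.32 and 8.40 untreated and at 8.52, 8.61, 8.23 and 8.28 after LPS. For each of these genes the treated and untreated ranges overlapped.

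Whether LPS acted differently in the 2 lines was tested as the difference of the responses. None of the 35 genes passed (0% of all features), and 0 had an unadjusted p under 0.05 (2.01% of all features). PDK1 had the smallest p-value (-0.18, SE 0.11), SLC16A3 the next, and PFKFB4, a relative of PFKFB3, the one after it (-0.22, SE 0.15). PFKFB4 had 0.91, 1.11, 1.15 and 0.86 in untreated and 1.41, 1.13, 0.59 and 0.94 in LPS-treated SCC13-pUNO cells, and 1.38, 0.90 and 0.79 in untreated and 1.23, 1.15, 0.76 and 0.80 in LPS-treated SCC13-TLR4 cells. Its values spread widely inside each group, and the difference was -0.41 within slide 1 and 0.03 within slide 2. Untreated SCC13-TLR4 had only replicate 1 on slide 1, and untreated SCC13-pUNO only replicate 4 on slide 2. The slide 1 value also includes the array that went against its label. Without the array that went against its label it was -0.22, and that of PDK1 -0.17. The median half-width of the interval was 0.32, wider than in the comparisons above.

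**Figure D3:**
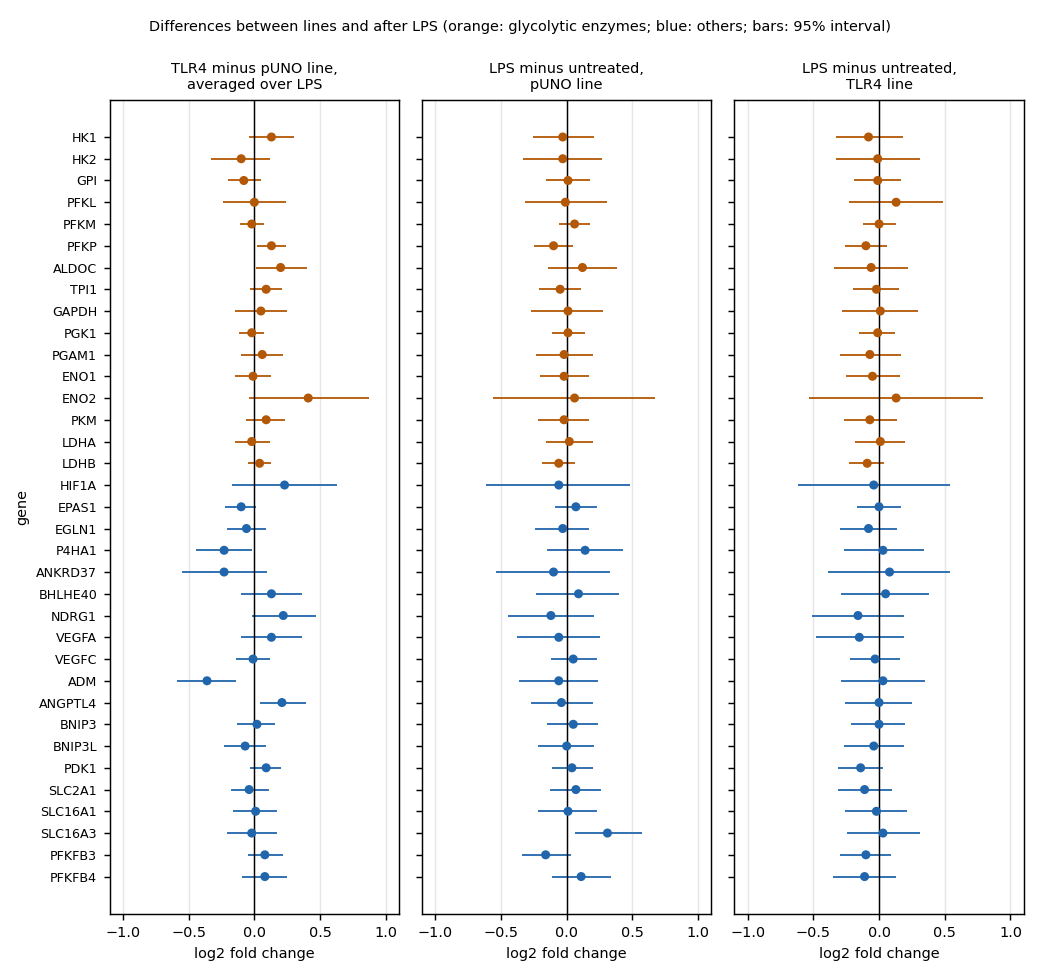
Log2 fold change of the 35 genes with its 95% interval for the SCC13-TLR4 line minus the SCC13-pUNO line averaged over LPS, and for LPS minus untreated in each line. Points lie between -0.36 and 0.41 in the first panel, between -0.16 and 0.31 in the second and between -0.16 and 0.13 in the third, and none passed the adjusted test.

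More of these genes differed between the slides, which are no condition of the study, than between the lines or after LPS. Slide coincided with scan and went largely with replicate number, so a slide difference here cannot be told apart from these. With group in the same model, 24 of 35 genes differed between slides at an adjusted p under 0.05, where 51.8% of all features did. At an unadjusted p under 0.05 there were 27 (57.7% of all features). On slide 2, 18 were lower (34.7% of all features) and 6 higher (17.1%). Slide accounted for a median of 56.9% of the variance of a gene among these genes and 35.4% among all features with a value on every array, and the groups for a further 7.90% and 11.3%.

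By their brightest feature, 12 of the 16 glycolytic enzymes were lower on slide 2 and none was higher, where 34.7% of all features were lower. All 16 differences were negative, while 37.4% of the differences over all features were positive. Their median was -0.26, against -0.13 for all features. PGK1 lay between 6.84 and 6.94 on the 8 arrays of slide 1 (median 6.89) and between 6.51 and 6.66 on the 7 arrays of slide 2 (median 6.58). For this gene the slides did not overlap, and the difference was -0.29 (SE 0.04, adjusted p = 2.10e-04). PFKP (-0.38), ENO1 (-0.37), TPI1 (-0.31) and LDHB (-0.29) passed as well, and HK2 (-0.11), PFKL (-0.17), ENO2 (-0.13) and LDHA (-0.09) did not. With each gene centred on its own mean, the median over the enzymes was 0.05 to 0.16 on every array of slide 1 and -0.25 to -0.06 on every array of slide 2, whatever the line or treatment.

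Bright features in general were lower on slide 2. Among features with a mean level of at least 6, 60.1% of all tested features were lower on slide 2 with a median of -0.25, and 10 of the 11 genes described here in that band were. Among features below -4 the median was 0.23. With quantile normalization, which forces the same distribution of levels on every array, the slide calls split into 6 higher and 9 lower instead of 6 and 18, and 3 glycolytic enzymes stayed lower with a median of -0.13, equal to that of all features. With median scaling the split was 6 and 20, and with normexp background correction 4 and 16.

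ALDOC had the largest slide difference of the enzymes. Its level was 2.06 to 2.65 on slide 1 (median 2.33) and 1.56 to 2.06 on slide 2 (median 1.82). The slides met at 2.06, and the difference was -0.61 (SE 0.09, adjusted p = 2.08e-04).

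Of the 19 other hypoxia-response genes, 6 were higher and 6 lower on slide 2, where 17.1% of all features were higher and 34.7% lower. SLC16A1, the lactate and pyruvate transporter MCT1, had by far the largest difference of the 35. It read -3.50 to -3.09 on slide 1 (median -3.20) and -1.23 to -1.02 on slide 2 (median -1.16), in every group alike. The difference was 2.09 (SE 0.08, adjusted p = 1.00e-09), a 4.27-fold change, and with normexp background correction it was 1.01. Between the lines, SLC16A1 differed by 0.01 on average once slide was in the model.

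HIF1A (0.72, SE 0.19, adjusted p = 0.00683) and ANKRD37, a short ankyrin-repeat target of the hypoxia factors (0.67, SE 0.15, adjusted p = 0.00296), were higher on slide 2 as well. HIF1A read -4.85 to -3.43 on slide 1 (median -3.87) and -3.46 to -2.98 on slide 2 (median -3.16). ANKRD37 read -3.86 to -3.12 (median -3.53) and -3.31 to -2.46 (median -2.92). Both genes were faint and their slides overlapped at the edges. P4HA1, in the middle of the range, read -0.10 to 0.17 on slide 1 (median -0.03) and 0.26 to 1.08 on slide 2 (median 0.32), a difference of 0.53 (SE 0.10, adjusted p = 9.70e-04) with no overlap. BNIP3L, a mitophagy receptor (0.29), and SLC2A1 (0.30) completed the 6.

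The 6 lower genes were PFKFB4 (-0.41), SLC16A3 (-0.36), VEGFA (-0.31), ANGPTL4 (-0.29), EGLN1 (-0.26) and VEGFC (-0.22). PFKFB4 had the largest of these, with 0.91 to 1.41 on slide 1 (median 1.15) and 0.59 to 0.94 on slide 2 (median 0.80). EGLN1 is the main oxygen-sensing hydroxylase of the HIF subunits. The mitochondrial genes BNIP3 (-0.15) and PDK1 (-0.12), the stress gene NDRG1 (-0.25), the repressor BHLHE40 (0.05), ADM (0.11), EPAS1 (0.00) and PFKFB3 (-0.03) did not pass.

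KDM3A showed the same dependence below the limit of detection. It read -6.65 to -4.02 on the 8 arrays of slide 1, none well above background, and -3.65 to -2.98 on the 7 arrays of slide 2, all well above background. Its signal was at least 2.32-fold higher on slide 2, taking the slide 1 level of each array as the higher of its own value and the faintest feature well above background there. Because every group had arrays on both slides, it was above background throughout no group and was not tested.

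**Figure D4:**
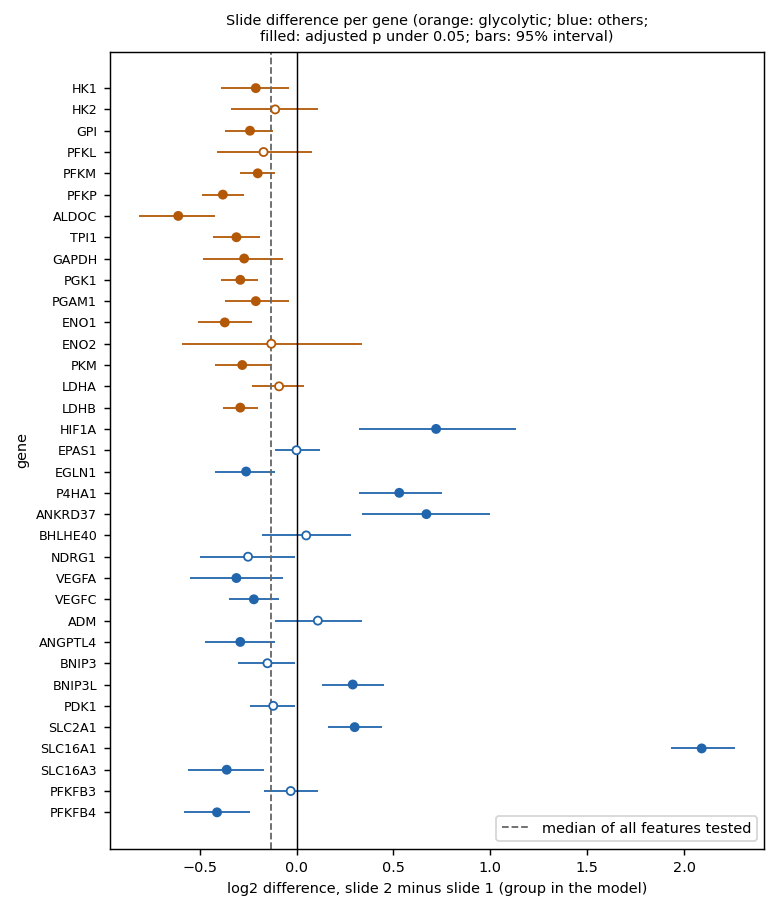
Log2 difference between slide 2 and slide 1 for each of the 35 genes, with group in the model and the 95% interval; filled points have an adjusted p under 0.05 and the dashed line is the median of all tested features, -0.13. The 16 glycolytic enzymes all lie below 0, and SLC16A1 stands apart at 2.09.

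Several genes had another tested feature, and it did not always follow the first. The fainter feature of LDHB was higher on slide 2 by 1.73 (SE 0.08), while the brightest was lower by -0.29. For PFKP the values were 0.26 and -0.38, for LDHA 0.07 and -0.09, and for BNIP3L they were -0.21 and 0.29. TPI1 and PGAM1, glycolytic enzymes with a fainter feature each, moved the same way in both, with -0.34 beside -0.31 and -0.37 beside -0.21. The fainter feature of PFKFB3 was lower on slide 2 by -0.42 (SE 0.07, adjusted p = 5.30e-04), beside -0.03 for the brightest. Between the LPS-treated lines that feature differed by 0.37 (SE 0.09, adjusted p = 0.496), beside 0.11, and after LPS in SCC13-TLR4 cells by 0.25, beside -0.10. No fainter feature passed the test between groups.

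Other genes of the same pathways gave the same picture between groups. Of 30 further genes of the oxygen-sensing pathway and its targets, 24 were tested and 0 passed in any of the 6 comparisons of the groups. Of 27 further genes of glycolysis and its branches, 19 were tested and 0 passed. The widest of these differences, singled out after its values were seen, was that of PFKFB2, a heart-type relative of PFKFB3. It was -1.77 (SE 0.63, adjusted p = 0.895) between the untreated lines. This feature was well above background on 14 of the 15 arrays, but on only 2 of the untreated SCC13-TLR4 arrays. How far the difference rests on the remaining array was not tested. Between the LPS-treated lines the lowest difference among the 19 genes was -0.22. PFKFB2 had a fainter tested feature too, whose difference is not given here. On slide 2, 8 of the 24 were lower and 2 higher, and 6 of the 19 lower and 4 higher. Over all features, 34.7% were lower and 17.1% higher.

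Markers of cell types are given by whether they were bright enough to be tested, since levels of different features are not comparable. Of 8 keratinocyte markers, 7 were tested, with KRT5 at 6.04 to 6.78 and SFN at 8.29 to 8.91 on the 15 arrays. KRT17 lay at 2.97 to 4.01. KRT16 (-1.27 to -0.64), TP63 (-1.82 to -0.85) and DSG3 (-1.94 to -1.17) were tested as well. KRT6A was well above background on 7 arrays. None of 6 fibroblast markers was bright enough to be tested. Of the leukocyte markers, PTPRC (-3.46 to -1.15) and CD68 (-2.66 to -1.72) were tested, as were CDH5, VWF and PECAM1 of the endothelial ones. PTPRC, CD68 and CDH5 were well above background on all 15 arrays, VWF on 14 and PECAM1 on 10. The keratin KRT14 was higher in the SCC13-TLR4 line by 1.42 on average (SE 0.20, adjusted p = 0.0359), or by 1.56 (SE 0.12, adjusted p = 1.90e-04) without the array that went against its label, and its level on the array that went against its label was 3.91, among those of the SCC13-TLR4 line (3.37 to 4.15). Its part in the values of ADM was not tested.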

How the data were processed

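Total RNA of 15 SCC13 cultures was hybridised to 1-colour Agilent 8x60K arrays. The deposited values are spot intensities that, per the file headers, the authors' Feature Extraction software (10.7.3.1) subtracted for background and detrended, without normalization between arrays. The normalization and the test behind the study's own lists are not given in the sources used here.

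From each log2 intensity, the 75th percentile over the array's non-control spots was subtracted. Outlier-marked spots were left out, and spots of a feature were averaged. Accessions gave 28174 of 50599 features a current RefSeq symbol. Testing needed a feature to be well above background throughout at least 1 group (22685 features). A gene is represented by its brightest tested feature. All arrays were fitted in limma 3.58.1 (R 4.3.3) with a mean per group and slide, read from the file headers, as a factor. Variances were moderated by empirical Bayes, and p-values were adjusted by Benjamini and Hochberg's method over all tested features (threshold 0.05). The fit was tested on simulated data.

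The members, gene lists and tests were chosen with earlier results of these data known. The genes named are the 3 with the smallest p in each comparison of groups, with values by array in the groups the text compares, and the 6 with the largest slide difference, with the lowest, median and highest value per slide. The number of arrays limits the precision. The alternatives covered slide, replicate block, background, scaling, filters, weights, moderation, features of a gene, samples in the fit, the methods' fold threshold and each array left out. One more, leaving out both untreated arrays that stand apart, was chosen after seeing the data.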

Additional observations from a re-analysis of the deposited data

Results flagged for a closer look

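Of 105 groups of 4 arrays examined for a single value far from the rest, 6 had one, where chance alone gives about 5.25 (1 group in 20). All 6 values were on slide 2. In untreated SCC13-pUNO cells, replicate 4 was the only array of its group on slide 2. There PGK1 was 6.62 (others 6.87 to 6.91), NDRG1 was -1.66 (others -1.43 to -1.41) and SLC16A1 was -1.09 (others -3.50 to -3.09). LDHA, the lactate dehydrogenase of muscle and many tumors, was lowest on replicate 3 of both LPS groups, at 7.64 in SCC13-pUNO cells (others 7.82 to 7.85) and 7.56 in SCC13-TLR4 cells (others 7.81 to 7.86). GAPDH was lowest on replicate 4 of LPS-treated SCC13-TLR4 cells, at 8.47 (others 8.94 to 9.01). The part of the slide in these values was not tested apart from the slide differences given above.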

How the results depend on the processing

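Between the groups, 0 of the 35 genes were called in each of the 6 comparisons and in each of the 172 combinations of comparison and alternative run, including each array left out in turn (0 to 0 genes) and both untreated arrays that stand apart left out. Fitting only the groups compared was run for the 4 comparisons between 2 groups. The directions of the 3 genes with the smallest p in each comparison held under all alternatives but 1, the PFKFB4 difference of responses, which was 0.03 within slide 2 against -0.22 in the whole fit. Between the slides, the 24 calls became 15 with quantile normalization, 1 when a log2 difference over 2 was also asked for, and 18 to 26 under the other alternatives except the replicate block. Leaving out 1 array gave 20 to 25.

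Replicate numbers are shared between groups. With the replicate block and slide in the model, no call between groups changed, and the slide calls fell to 8 of 35, with HIF1A, ANKRD37, ALDOC and P4HA1 no longer past the threshold (adjusted p = 0.534, 0.535, 0.116 and 0.126). All arrays of replicate 1 lay on slide 1 and all of replicate 4 on slide 2, so replicate number and slide could not be fully separated. After group alone, the correlation between same-numbered arrays ran from 0.38 to 0.62 between the LPS-treated lines. In the other comparisons it ran from -0.40 to 0.58. After group and slide it ran from -0.33 to 0.25, and 1 or 2 pairs per comparison were over 0.1. Whether the numbers pair the cultures was not tested apart from slide. With normexp, HIF1A differed by 0.22 between slides (adjusted p = 0.0532). Over all features, the 22 calls between the lines on average ranged from 0 to 49, the 49 without the array that went against its label. Faint genes (HIF1A, ENO2, ANKRD37) have the widest intervals, and CA9, EGLN3 and SLC2A3 could not be compared.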
